A study of Mus musculus with 4 samples.

Results

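Cdkn2a, Cdkn2b, Cdkn1a, Lmnb1 and Glb1, 5 genes that are widely used to recognise cellular senescence, were followed in single satellite cells of dystrophic and control mice. They are 5 of the 27998 genes counted in the files. They were picked by name, with earlier results of these data known. The study had already reported Cdkn2a, Cdkn2b and Cdkn1a as higher in the dystrophic cells. The cells were sorted from the lower hindlimb muscles as ITGA7-positive, VCAM-positive and negative for the lineage markers Cd11b, Sca1, Cd45 and Cd31, and were profiled with 10X 3′ chemistry. There were 4 libraries. B10 was the C57/Bl10ScsSn control at 15 weeks, mdx was C57BL/10ScSn-Dmdmdx at 11 weeks, DBA was the DBA/2 control at 13 weeks and D2-mdx was D2.B10-Dmdmdx at 14 weeks, so that both dystrophic strains carried the same Dmdmdx allele on different backgrounds. Each library pooled 2 mice. The design therefore had 1 library per strain and no replicate, no test was made, and the differences between strains cannot be told apart from those of age, library or pool. Intervals are 95% intervals and cover counting error only.

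Myogenic cells made up 4418 of 4581 kept cells in B10, 4821 of 6313 in mdx, 2699 of 3279 in DBA and 4188 of 5756 in D2-mdx. Their median depth lay between 6474.5 and 10294 unique molecular identifiers (UMIs) per cell and was lower in both dystrophic libraries, so every cell was first thinned to 3000 UMIs before detection was compared. Levels are given in CPM, the UMIs of a gene scaled by all UMIs of the library's myogenic cells, and 3 counts, the floor used for a count of 0, correspond to at most 0.0996 CPM in any library. Dmd, the mutated gene, stood at 324 CPM in B10 and 120 CPM in mdx, and at 287 CPM in DBA and 94.4 CPM in D2-mdx. Libraries shared between 5 and 16 cell barcodes pairwise. Cells were grouped by clustering and named by marker genes, as MuSC-like (muscle stem cells with Pax7 and Calcr), cycling progenitor-like, differentiating myocyte-like, DMD-enriched-like (with Postn, Mgp and collagen genes), immunomyoblast-like (interferon-stimulated genes) and an unnamed cluster led by Dlk1 and Hhip.

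Senescence is a lasting exit from the cell cycle. Cdkn2a encodes p16Ink4a, which inhibits the kinases CDK4 and CDK6, and in another reading frame p19Arf, which stabilises p53. Cdkn2b encodes p15Ink4b, a close relative that inhibits the same kinases, and Cdkn1a encodes p21, a broader CDK inhibitor that is induced by p53 and also rises when myoblasts leave the cycle to differentiate. Lmnb1 encodes lamin B1 of the nuclear envelope, whose loss is used as a sign of senescence, and Glb1 encodes lysosomal β-galactosidase, the enzyme behind the senescence-associated β-galactosidase stain. In satellite cells, repression of Cdkn2a is known to protect the capacity to return from quiescence to the cycle.

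Cdkn2a and Cdkn2b are neighbours on mouse chromosome 4. In GRCm38, Cdkn2a spans chr4:89274471-89294653 and Cdkn2b chr4:89306299-89311039, both on the minus strand, with 11645 bases between them. Cdkn1a lies at chr17:29090976-29100727 and Glb1 at chr9:114401076-114474898, both on the plus strand. The p16Ink4a transcript Cdkn2a-201 starts with an exon of 207 bases at chr4:89281986-89282192, and the p19Arf transcript Cdkn2a-202 with an exon of 320 bases at chr4:89294334-89294653. They have no base of exon 1 in common, whereas exon 2 (341 bases) and 234 bases of exon 3 are shared, so that reads taken from the 3′ end cannot tell p16Ink4a RNA from p19Arf RNA. All Cdkn2a values below are their sum. The oligos that the study used for digital PCR of Cdkn2a are printed in lower case from 5′ to 3′, because they differ from the counts in the transcripts they match.
Forward primer: aatctgcaccgtagttgagc
Reverse primer: tgttgttgaggctagagagga
Probe: cgcaccggaatcctggacca
Letter for letter, the probe and the reverse primer matched exon 1 of Cdkn2a-202 and had no match in Cdkn2a-201, while the forward primer matched exon 2 of both transcripts on the opposite strand.

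The start sites of the 3 inhibitor genes are shown because all 3 were higher in both dystrophic libraries, while Cdkn1a was highest in another class of cells than Cdkn2a and Cdkn2b. Each window is RefSeq sequence of GRCm38.p6, a C57BL/6J reference, and runs from 250 bases before to 50 bases after the annotated start (300 bases). Capitals mark the motifs searched on both strands, which were the GC box GGGCGG, the E-box CAGCTG, the cyclic AMP response element TGACGTCA, the TATA sequence TATAA and the p53 response element with at most 1 mismatch.
Cdkn2a, p16Ink4a start, chr4:89282143-89282442, minus strand: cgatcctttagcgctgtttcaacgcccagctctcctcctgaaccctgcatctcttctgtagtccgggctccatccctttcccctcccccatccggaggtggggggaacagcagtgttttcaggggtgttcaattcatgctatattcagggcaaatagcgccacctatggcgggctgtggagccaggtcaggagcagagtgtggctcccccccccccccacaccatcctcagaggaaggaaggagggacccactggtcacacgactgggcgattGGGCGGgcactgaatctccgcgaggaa
Cdkn2a, p19Arf start, chr4:89294570-89294869, minus strand: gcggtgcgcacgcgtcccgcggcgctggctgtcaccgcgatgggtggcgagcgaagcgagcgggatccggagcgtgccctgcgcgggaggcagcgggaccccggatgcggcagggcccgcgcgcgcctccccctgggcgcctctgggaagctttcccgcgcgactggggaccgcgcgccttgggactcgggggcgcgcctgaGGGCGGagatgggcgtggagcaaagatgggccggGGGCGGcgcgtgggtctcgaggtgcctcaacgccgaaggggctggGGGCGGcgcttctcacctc
Cdkn2b start, chr4:89310983-89311282, minus strand: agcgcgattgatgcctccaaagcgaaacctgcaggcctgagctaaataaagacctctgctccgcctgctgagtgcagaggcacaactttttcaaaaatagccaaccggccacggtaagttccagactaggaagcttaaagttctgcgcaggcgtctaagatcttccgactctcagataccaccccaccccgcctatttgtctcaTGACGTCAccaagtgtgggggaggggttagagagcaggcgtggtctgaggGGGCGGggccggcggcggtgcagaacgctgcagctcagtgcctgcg
Cdkn1a, upstream start, chr17:29090729-29091028, plus strand: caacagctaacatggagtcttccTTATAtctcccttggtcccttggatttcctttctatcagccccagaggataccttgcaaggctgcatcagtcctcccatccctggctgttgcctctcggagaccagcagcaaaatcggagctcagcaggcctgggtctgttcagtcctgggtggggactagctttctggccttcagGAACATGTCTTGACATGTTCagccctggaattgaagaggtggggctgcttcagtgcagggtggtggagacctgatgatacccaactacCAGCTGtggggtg
Cdkn1a, downstream start, chr17:29093519-29093818, plus strand: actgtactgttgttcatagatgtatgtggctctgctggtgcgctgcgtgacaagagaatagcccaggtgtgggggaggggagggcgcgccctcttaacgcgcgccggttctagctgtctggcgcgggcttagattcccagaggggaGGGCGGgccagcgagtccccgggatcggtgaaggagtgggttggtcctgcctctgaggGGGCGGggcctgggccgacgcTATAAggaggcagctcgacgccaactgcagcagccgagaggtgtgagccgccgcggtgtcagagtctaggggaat
The GC box occurred 3 times in the p19Arf window, once each in the p16Ink4a and Cdkn2b windows and 2 times at the downstream start of Cdkn1a, and was present in 35.9% of 32544 windows. A match to the p53 response element, with 1 mismatch, stood at the upstream start of Cdkn1a, 51 bases before it, and such a match was found in 29 windows (0.0891%). The Cdkn2b window held the cyclic AMP response element 46 bases before the start, which 1.80% of windows hold. TATAA, in 24.8% of windows, stood 25 bases before the downstream start of Cdkn1a. At the upstream start it lay 227 bases before the start and on the opposite strand. The E-box, in 16.4% of windows, was found at the upstream start of Cdkn1a. The GC content was 77% at the p19Arf start, 60.3% at the p16Ink4a start and 57.7% at the Cdkn2b start. These matches are descriptions of letters, and no factor was measured at them.

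Cdkn2a had few UMIs in control myogenic cells and many in both dystrophic libraries. It had 46 UMIs in B10 (1.15 CPM, 0.844 to 1.54), 2954 in mdx (73.1 CPM, 70.5 to 75.8), 69 in DBA (2.29 CPM, 1.78 to 2.90) and 3765 in D2-mdx (108 CPM, 104 to 111). The ratio of mdx to B10 was 63.4-fold (47.4 to 86.8), or 5.99 on the log2 scale, and that of D2-mdx to DBA was 47.0-fold (37.1 to 60.6), or 5.56. Of the genes of at least 10 CPM in either library of a pair, 399 of 8478 (4.71%) were at least 2-fold higher in mdx and 438 (5.17%) at least 2-fold lower, and 5.83% of 8503 were at least 2-fold higher in D2-mdx and 5.86% lower. Cdkn2a held rank 12 and rank 17 from the top of these lists. In thinned cells, Cdkn2a was detected in 0.457% of B10 cells (20 cells), 15.3% of mdx cells (738), 0.482% of DBA cells (13) and 20.7% of D2-mdx cells (865). Without thinning, the shares were 0.792%, 29.8%, 2.00% and 36.8%.

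Cdkn2b was low in all 4 libraries and still separated the dystrophic from the control cells. Its level was 1.53 CPM in B10 (1.17 to 1.96), 12.5 CPM in mdx, 1.49 CPM in DBA and 13.5 CPM in D2-mdx. The intervals of both controls overlapped, as did those of both dystrophic libraries, while the log2 ratios within a background were 3.03 (2.64 to 3.44) and 3.17 (2.73 to 3.65). In thinned cells it was detected in 0.502% of cells for B10 against 3.40% for mdx, and in 0.482% for DBA against 3.44% for D2-mdx.

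Cdkn1a was already readily detected in control cells. It stood at 39.6 CPM in B10, 178 CPM in mdx, 46.8 CPM in DBA and 206 CPM in D2-mdx, and the ratios were 4.51-fold (4.27 to 4.76) and 4.41-fold (4.16 to 4.67). In thinned cells it was found in 7.15% of B10, 28.1% of mdx, 10.1% of DBA and 30.7% of D2-mdx cells. Within each background the dystrophic library was the higher for all 3 inhibitors.

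Lmnb1 and Glb1 differed less. Lmnb1 stood at 20.2 CPM in B10, 46.1 CPM in mdx, 23.8 CPM in DBA and 53.9 CPM in D2-mdx, so the sign was that of a higher and not a lower level in the dystrophic cells, with log2 ratios of 1.19 (1.07 to 1.31) and 1.18 (1.06 to 1.31). In MuSC-like cells alone, these log2 ratios were 0.09 (-0.09 to 0.28) and 0.05 (-0.16 to 0.26). Glb1 stood at 6.34 CPM in B10, 13.6 CPM in mdx, 4.52 CPM in DBA and 7.70 CPM in D2-mdx, a log2 ratio of 1.10 (0.88 to 1.32) in the first pair and of 0.77 (0.47 to 1.08) in the second, where both libraries were under 10 CPM. In MuSC-like cells the Glb1 log2 ratios were 0.81 and 0.39. The inhibitors had MuSC-like log2 ratios of 5.58 and 5.20 for Cdkn2a, 3.01 and 2.96 for Cdkn2b and 2.18 and 1.88 for Cdkn1a.

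**Figure D1:**
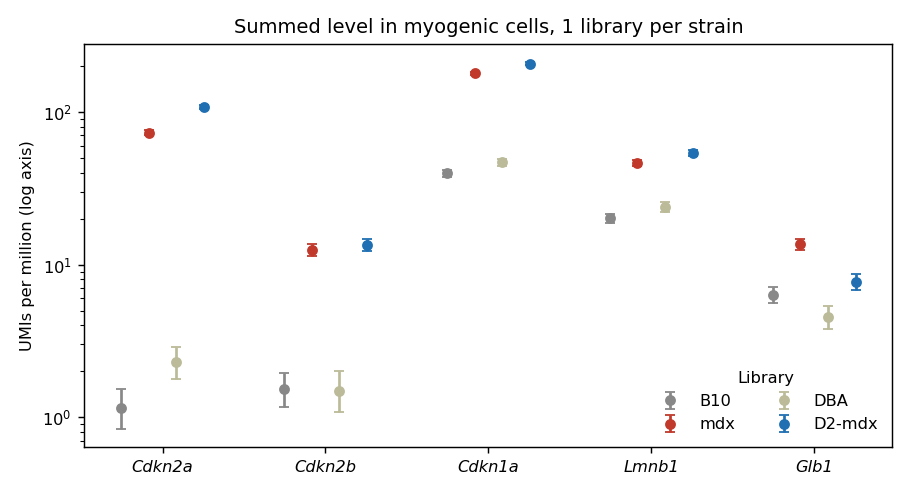
Level of each of the 5 genes in the myogenic cells of the 4 libraries, in CPM on a log axis, with exact Poisson intervals as bars. Cdkn2a lies near 1 to 2 CPM in B10 and DBA and at 73.1 and 108 CPM in mdx and D2-mdx, while Lmnb1 and Glb1 lie much closer together across the libraries.

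**Figure D2:**
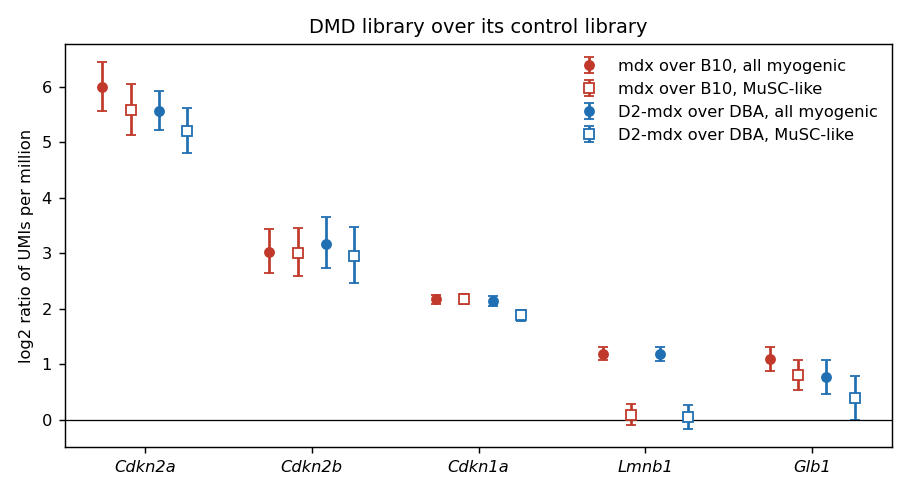
Log2 ratio of the dystrophic library to its control for the CDK inhibitor genes, Lmnb1 and Glb1 in all myogenic cells and in MuSC-like cells alone, with counting intervals as bars. The Lmnb1 ratio falls from 1.19 and 1.18 in all myogenic cells to 0.09 and 0.05 in MuSC-like cells, whereas those of Cdkn2a stay above 5.

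By level, Cdkn2a and Cdkn2b were highest in the DMD-enriched-like class of myogenic cells in both dystrophic libraries, while Cdkn1a and Lmnb1 were highest in other classes. Cdkn2a stood at 106 CPM in that class in mdx and 176 CPM in D2-mdx, against 55.0 and 77.1 CPM in MuSC-like cells. It was detected in 24.6% of the 911 DMD-enriched-like cells of mdx (21.8 to 27.5) and 36.3% of the 570 in D2-mdx (32.4 to 40.4), against 12.8% (11.6 to 14.0) and 17.3% (15.9 to 18.7) of MuSC-like cells. Cycling progenitor-like cells were at 16.3% in mdx and 26.2% in D2-mdx, and differentiating myocyte-like cells at 12.4% and 16.7%. The immunomyoblast-like cells reached 20.5% of 83 cells and 38.7% of 31, with intervals from 12.4 to 30.8 and from 21.9 to 57.8. The cluster led by Dlk1 and Hhip had the lowest share of the myogenic classes, 4.35% of 46 cells and 4.67% of 107. All 20 positive cells of B10 and 12 of the 13 in DBA were MuSC-like, as were 92.7% and 90.8% of the negative cells.

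Cells of other types in the same libraries give the level at which free RNA or mixed droplets could contribute. Pericyte-like cells had a Cdkn2a UMI in 1.15% of 608 cells in mdx and 0.614% of 978 in D2-mdx, at median depths of 8030 and 6873 UMIs, against 6848 and 6474.5 in the myogenic cells. No endothelial-like cell of 252 in mdx had a UMI, which allows a share of up to 1.45%, and 1.14% of 88 did in D2-mdx. The highest share was that of fibroblast or tenocyte-like cells of D2-mdx, 5 of 50 cells or 10% (3.33 to 21.8, median 12071 UMIs), where none of 29 in mdx had a UMI, which allows up to 11.9%. These 50 cells held only 6 Cdkn2a UMIs before thinning (9.45 CPM). By level the glial-like cells of D2-mdx were higher, with 58 UMIs in 231 cells (31.1 CPM). White blood cell-like cells were at 0.917% of 109 and 2.55% of 157, and Schwann-like cells at 0 of 79, which allows up to 4.56%, and 4.26% of 47. Glial-like cells were at 1.12% in mdx and 6.49% in D2-mdx. Pax7, a satellite cell gene, was present in 14.0% and 15.6% of these glial-like cells, beside 1.97% and 3.37% of the pericyte-like cells, and the part of mixed droplets in the glial value was not tested.

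Cdkn1a followed another order. It was detected in 45.6% of differentiating myocyte-like cells in mdx and 58.6% in D2-mdx (331 and 521 CPM), above 26.8% and 26.9% of MuSC-like cells, and in 28.1% and 36.3% of DMD-enriched-like cells. Outside the myogenic cells it was far higher in Schwann-like cells, the myelinating cells of nerve, at 2069 CPM in B10, 1608 CPM in mdx, 1773 CPM in DBA and 1147 CPM in D2-mdx, and 93.7% of these cells in mdx and 91.5% in D2-mdx had a UMI. These rested on 14, 79, 11 and 47 cells. In that cell type the dystrophic libraries were not the higher ones, the reverse of the myogenic cells.

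Cdkn2b was highest in DMD-enriched-like cells, at 16 CPM in mdx and 22.0 CPM in D2-mdx, and lowest in differentiating myocyte-like cells, at 4.43 and 4.52 CPM, the class in which Cdkn1a was highest. Lmnb1 was highest in cycling progenitor-like cells (130 and 147 CPM) and differentiating myocyte-like cells (167 and 124 CPM) and stood at 19.3 and 17.8 CPM in MuSC-like cells. Glb1 was at 18.7 CPM in DMD-enriched-like cells of mdx and 12.5 CPM in those of D2-mdx, and at 11.3 and 5.76 CPM in MuSC-like cells.

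**Figure D3:**
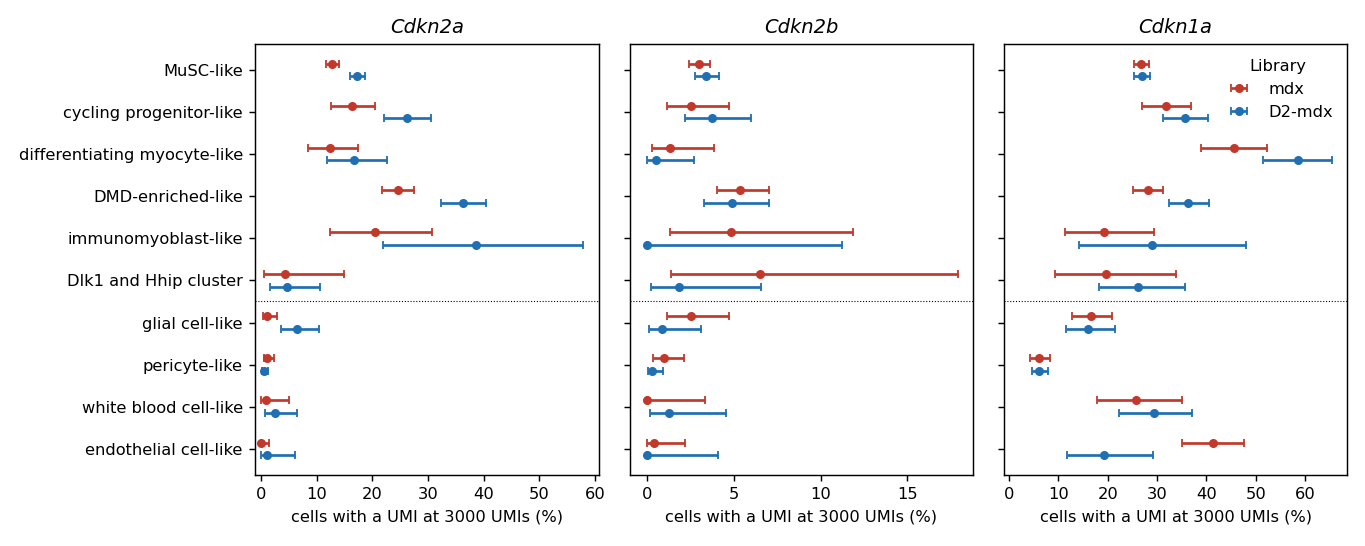
Share of cells with a UMI of Cdkn2a, Cdkn2b or Cdkn1a, in percent after thinning to 3000 UMIs, by cell class in mdx and D2-mdx, with exact binomial intervals as bars. Among the myogenic classes, Cdkn2a is highest in the DMD-enriched-like and immunomyoblast-like classes, and Cdkn1a in the differentiating myocyte-like class. Schwann-like, vascular smooth muscle-like and fibroblast or tenocyte-like cells are not plotted.

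The rest of the CDK inhibitor family was mixed. Cdkn1c, which encodes p57 and was also used as a marker to name DMD-enriched-like cells, stood at 31.1 CPM in B10 and 1039 CPM in mdx (log2 ratio 5.06) and at 51.6 CPM in DBA and 551 CPM in D2-mdx (3.42). Cdkn2c, encoding p18, had log2 ratios of -0.45 and -0.21, Cdkn2d, encoding p19Ink4d, of 0.33 and 0.65, and Cdkn1b, encoding p27, of -0.09 and -0.57. In each background 4 of the 7 inhibitors were at least 2-fold higher and none at least 2-fold lower. They were Cdkn1c and the members Cdkn2a, Cdkn2b and Cdkn1a, so the count largely restates the members. The list medians of 2.17 and 2.14 were the ratios of Cdkn1a itself, where the median of all genes was -0.03 and -0.07. Of all genes, 4.71% in mdx and 5.83% in D2-mdx were at least 2-fold higher. Among G1 cyclins, kinases and RB family genes, 1 of 9 compared was at least 2-fold higher in mdx and 2 of 10 in D2-mdx. Cdk6, a kinase that p16Ink4a inhibits, led in both, from 11.1 to 77.0 CPM and from 13.0 to 76.7 CPM, whereas Cdk4, the other, had log2 ratios of 0.46 and 0.49. Ccne1, cyclin E1, had a log2 ratio of 2.48 in D2-mdx, and Rbl2, a member of the RB family, -1.09.

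Genes of p53 and its targets were mostly within 2-fold, with a larger share higher than among all genes (4.71% in mdx and 5.83% in D2-mdx). Of 14 compared, 3 were at least 2-fold higher in mdx, and of 13 compared, 4 were higher and 1 lower in D2-mdx, with medians of 0.42 and 0.59. Plk2 (log2 ratios 2.02 and 2.13), Phlda3 (1.36 and 1.85) and the proapoptotic Bbc3 (1.75 and 1.53) were higher in both, and Trp53inp1 was the lowest in both (-0.72 and -1.07). The Polycomb repressors, which silence the Cdkn2a locus in many cells, had 0 of 13 genes at least 2-fold higher in either background and 1 lower in mdx, with medians of -0.17 and -0.18. Of all genes, 5.17% were at least 2-fold lower in mdx and 5.86% in D2-mdx. Pcgf2 had log2 ratios of -1.12 and -0.82, Cbx7 one of -0.99 in mdx, Ezh2 values of 0.71 and 0.37, and Bmi1, the best known of those that hold down Cdkn2a, 0.07 and 0.01.

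Secreted factors that senescent cells are known to release went both ways in mdx and were mostly higher in D2-mdx. Of all genes, 4.71% in mdx and 5.83% in D2-mdx were at least 2-fold higher, and 5.17% and 5.86% lower. In mdx, 5 of 18 compared were at least 2-fold higher and 3 lower, and in D2-mdx 12 of 20 were higher and 3 lower, with medians of 0.33 and 1.53. Spp1, osteopontin, had 1 UMI in B10 and stood at 52.0 CPM in mdx (log2 interval 8.54 to 16.32), and at 0.432 CPM in DBA and 155 CPM in D2-mdx. Timp1, an inhibitor of matrix metalloproteinases, had log2 ratios of 6.42 and 6.02, and Igfbp3 one of 4.47 in mdx. Vegfa was lower in both (-2.45 and -2.0). The lamina and HMGB list, with Lmnb1, had 1 of 9 genes at least 2-fold higher in mdx, which was Lmnb1, and 4 of 9 in D2-mdx, with medians of 0.65 and 0.44. The lysosomal list, with Glb1, had 1 of 17 in mdx, Glb1 itself, and 1 of 16 in D2-mdx, which was Ctsd (1.02), with medians of 0.41 and 0.32.

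Lists of the states that these cells pass through were compared in the same way. Of all genes, 4.71% were at least 2-fold higher and 5.17% lower in mdx, and 5.83% and 5.86% in D2-mdx. All 11 mitosis genes compared in mdx and all 16 in D2-mdx were at least 2-fold higher (medians 2.40 and 2.80), led by Birc5 (3.71 and 3.91), and 3 of 12 and 9 of 16 DNA replication genes were, with Rrm2 at 2.53 and 3.33. Early sarcomere genes, switched on as myoblasts differentiate, had 12 of 13 and 10 of 12 at least 2-fold higher, and extracellular matrix genes of the DMD-enriched cells 8 of 12 and 6 of 12. The satellite cell and myogenic factors had 3 of 19 higher and 4 lower in mdx and 3 of 19 higher and 3 lower in D2-mdx, with Myog at 5.08 and 3.88 and Chrdl2 at -2.06 and -1.36. Immediate-early genes had 0 of 20 higher and 3 lower in mdx and 3 higher and 1 lower in D2-mdx. Of 4 mature myofibre genes, which could enter as free RNA, 2 were at least 2-fold higher in each background, with Eno3 at 3.07 and 4.80. The shares of the cell classes differed between the libraries in step with these lists, and the part of that in the values over all myogenic cells was not separated except by the MuSC-like values given above.

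Cdkn2a UMIs were spread thinly over the dystrophic cells. Of the 738 positive mdx cells 603 had 1 UMI, 106 had 2 and 29 had 3 or more, and of the 865 in D2-mdx these were 633, 173 and 59. An even spread of the same UMIs over all myogenic cells would place them in 17.3% of mdx cells and 24.3% of D2-mdx cells, against 15.3% and 20.7% measured, and would give 76.3 and 135 cells with at least 2 UMIs, against 135 and 232. The ratio of variance to mean was 1.31 in mdx and 1.38 in D2-mdx, and that of Mki67, a gene of cycling cells, was 2.64 and 3.45. When each cell's 3000 UMIs were divided at random into parts of 1500, 20.2% of mdx cells positive in the first part were positive in the second (16.4 to 24.4), against 7.31% of cells negative in the first (6.56 to 8.12). In D2-mdx these were 25.0% and 10.3%. For Mki67 the same values were 25.0% and 1.29% in mdx and 32.0% and 1.70% in D2-mdx. Cells called negative at this depth thus included cells that held Cdkn2a RNA, and the comparisons below set cells of more against cells of less detected Cdkn2a.

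Positive and negative cells were compared at equal depth within each library. Before thinning, positive cells were deeper, with median depths of 8058 against 6698 UMIs in mdx and 7476 against 6314 in D2-mdx, and after thinning they had 1337 against 1312 genes and 1344 against 1320. The classes were unevenly mixed. DMD-enriched-like cells made up 30.4% of the positive and 16.8% of the negative cells in mdx, and 23.9% and 10.9% in D2-mdx, while MuSC-like cells made up 55.4% and 68.3%, and 56.5% and 70.3%. The classes were drawn from the expression of the same cells, so these shares are a description.

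Few genes differed by 2-fold between the positive and negative cells, and the called genes varied with the random draw. In mdx, 12 of 8558 genes with enough UMIs were at least 2-fold higher in positive cells (0.14%) and 31 at least 2-fold lower (0.362%), and in D2-mdx 40 of 8907 were higher (0.449%) and 38 lower (0.427%). Of 8296 genes compared in both, 1 was higher in both (0.0121%) and 5 were lower in both (0.0603%). Across these genes the log2 ratios of mdx and D2-mdx had a correlation of 0.283 and the same sign in 59.3%, a description over genes that are not independent. Another draw of 3000 UMIs gave 39 genes higher in mdx and 5 higher and 1 lower in both.

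The gene higher in both was Ptn, which encodes the secreted growth factor pleiotrophin. It stood at 35.2 CPM in positive and 13.4 CPM in negative cells of mdx (log2 ratio 1.40, 0.99 to 1.79) and at 28.1 and 9.73 CPM in D2-mdx (1.53, 1.07 to 1.98). Ptn was at least 2-fold higher in both libraries in the other draw and against class-matched negatives, and was not at 2000 or 5000 UMIs, in whole cells, in MuSC-like cells alone or with predicted doublets kept.

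The 5 genes lower in both depended on the setting. None of them was lower in both libraries by 2-fold in the other draw of 3000 UMIs, at 2000 UMIs, in MuSC-like cells alone or with predicted doublets kept, 1 was at 5000 UMIs, and 3 were in whole cells. Tnnt2, cardiac troponin T, an early gene of differentiating myoblasts, stood at 7.23 against 22.9 CPM in mdx (-1.67, -2.49 to -0.94) and 6.17 against 23.5 CPM in D2-mdx (-1.93, -2.76 to -1.20). Tnnt2 had 16 UMIs in the positive cells of each library. It was detected in 1.90% of positive and 2.45% of negative cells in mdx, and in 1.27% and 2.62% in D2-mdx. Actc1, cardiac actin, had log2 ratios of -1.38 and -1.30, and Tmem8c, which encodes the fusion protein myomaker, -1.60 and -1.04. Actc1 was detected in 2.30% of positive and 2.82% of negative cells in mdx and in 1.73% and 2.32% in D2-mdx, shares that differed less than its level. The globin genes Hba-a2 (-3.94 and -1.30) and Hbb-bs (-3.16 and -1.06) belong to red blood cells, which the sort does not target. Hbb-bs was nevertheless detected in similar shares of cells, 4.47% of positive and 4.63% of negative cells in mdx and 7.86% and 9.75% in D2-mdx, so its difference in mdx lay in the UMIs per detected cell.

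None of the other members differed by 2-fold between positive and negative cells. Cdkn2b was among the 40 of 8296 genes at least 1.5-fold higher in positive cells of both libraries (class-matched log2 ratios 0.74 and 0.69). Cdkn2b was the inhibitor with the largest ratio, at 19.4 against 10.9 CPM in mdx (0.84, 0.31 to 1.34) and 18.5 against 10.6 CPM in D2-mdx (0.80, 0.28 to 1.30). Cdkn1a was at 201 against 160 CPM (0.33, 0.18 to 0.48) and 211 against 173 CPM (0.29, 0.15 to 0.43). For Lmnb1 the log2 ratios were -0.12 (-0.52 to 0.26) and 0.27 (-0.04 to 0.57). Glb1 gave -0.02 in mdx and 0.38 (-0.41 to 1.11) in D2-mdx, so that neither gene was lower or higher in positive cells beyond counting error. Cdkn1c, which like Cdkn2a was higher in both dystrophic libraries, was at 645 against 625 CPM in mdx and 261 against 373 CPM in D2-mdx (-0.51, -0.63 to -0.40). The share of cells with a Cdkn1c UMI was higher in positive cells in both libraries, at 39.8% against 31.2% in mdx and 24.3% against 20.3% in D2-mdx.

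By list, the early sarcomere genes had median log2 ratios of -0.78 in mdx and -0.54 in D2-mdx, where the median of all genes was 0.04 and 0.03. At least 2-fold lower were 5 of 13 genes in mdx and 2 of 12 in D2-mdx, beside 0.362% and 0.427% of all genes compared. None of the list was 2-fold higher. Ttn, the giant protein titin, went the other way in both, at 192 against 132 CPM (0.54) and 183 against 95.5 CPM (0.94). Among the myogenic factors (medians -0.13 and -0.19), Myog, the factor that drives terminal differentiation, had log2 ratios of -0.51 and -0.78, Myod1 -0.26 and -0.19, and the satellite cell factor Pax7 -0.16 and -0.15. Against class-matched negatives the log2 ratios were -0.20 and -0.57 for Myog, -0.11 and -0.22 for Myod1 and -0.13 and -0.02 for Pax7. Myog was detected in 4.47% of positive and 5.54% of negative cells in mdx, and in 8.09% and 8.10% in D2-mdx. The Myog difference in D2-mdx thus lay in the UMIs per detected cell. Of the 19 factors compared, Tmem8c alone was past 2-fold lower, in both libraries. The immediate-early genes had medians of -0.45 and -0.37, with 1 of 20 at least 2-fold lower in mdx, which was Ier3 (-1.01), and none in D2-mdx. These genes are known to respond to cell dissociation.

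Almost no matrix gene of the DMD-enriched cells and almost no mitosis gene passed 2-fold, while the medians of both lists were above that of all genes. Of all genes compared, 0.14% in mdx and 0.449% in D2-mdx were past 2-fold higher. The matrix genes had medians of 0.46 and 0.43, with 0 of 12 and 1 of 12 past 2-fold higher, and Postn, periostin, stood at 125 against 65.9 CPM in mdx (0.92) and 62.8 against 28.5 CPM in D2-mdx (1.14). The mitosis genes had medians of 0.39 and 0.45, with 0 of 10 and 1 of 16 past 2-fold. Ccnb2, cyclin B2, was at 14.9 against 7.67 CPM (0.96) and 32.0 against 15.7 CPM (1.02), Cenpa, the centromeric histone, at 0.81 and 0.90, Mki67 at 0.55 and 0.56 and Top2a at 0.41 and 0.65. DNA replication genes had medians of 0.13 and 0.31 with none past 2-fold. Against negative cells weighted to the same class mix, the medians of the matrix list became 0.14 and 0.11 and those of the mitosis list 0.28 and 0.02. The medians of the early sarcomere list became -0.65 and -0.48. Of the positive cells, 28 in mdx and 34 in D2-mdx were differentiating myocyte-like. The weighting of the negatives did not divide the MuSC-like cells further. Against those negatives 8 of 8542 genes were at least 2-fold higher in mdx (0.0937%) and 26 lower (0.304%), 23 of 8884 higher (0.259%) and 21 lower (0.236%) in D2-mdx, and in both libraries 1 was higher (Ptn, 0.0121% of 8280) and 3 were lower (Tnnt2, Actc1 and the chemokine gene Cxcl3, 0.0362%). Cxcl3 rested on few cells, with 0 UMIs in positive cells of mdx and 3 in those of D2-mdx. It was detected in 0.318% of negative cells in mdx and 0.451% in D2-mdx.

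Genes often listed as features of senescent cells showed little. Of all genes compared, 0.14% were past 2-fold higher and 0.362% lower in mdx, and 0.449% and 0.427% in D2-mdx. The secreted factors had medians of -0.11 and -0.04, with 1 of 19 at least 2-fold higher in mdx, which was Spp1 at 58.3 against 25.4 CPM (1.20), and none of 20 in D2-mdx, where Spp1 was at 140 against 90.6 CPM (0.63). Igfbp6 was at 0.53 and 0.85, while Areg (-1.49) in mdx and Cxcl2 (-2.92) in D2-mdx were past 2-fold lower. The p53 targets had medians of 0.07 and 0.23 and no gene of 15 past 2-fold in either library, with Bax at 137 against 100 CPM in mdx (0.45) and Ccng1 at 25.8 against 16.2 CPM in D2-mdx (0.67). The lysosomal list had medians of 0.10 and 0.14, the lamina and HMGB list 0.05 and 0.16 and the Polycomb list -0.01 and 0.00, all without a gene past 2-fold. The remaining CDK inhibitors had medians of 0.01 and -0.01, also without a gene past 2-fold. Of the G1 genes (medians -0.01 and 0.20), Ccnd2, cyclin D2 (1.45), and E2f3 (1.20) were past 2-fold higher in D2-mdx, and none in mdx. The 4 mature myofibre genes had medians of 0.26 and 0.19.

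**Figure D4:**
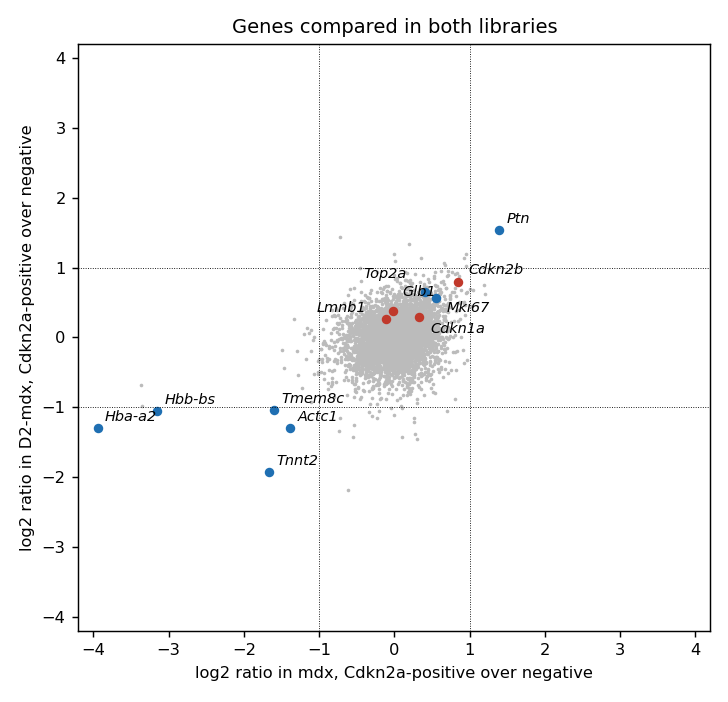
Log2 ratio of Cdkn2a-positive to Cdkn2a-negative myogenic cells at 3000 UMIs per cell, in mdx on the horizontal and D2-mdx on the vertical axis, for every gene compared in both libraries, with the named genes marked. Ptn lies in the upper right at 1.40 and 1.53, Tnnt2 and Actc1 in the lower left, and most genes lie near 0 in both.

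Markers of other cell types differed by less than 2-fold in sum, except those of mature myofibres in mdx. The summed level of the 6 pericyte markers was 263 CPM in positive and 255 CPM in negative cells of mdx and 237 and 251 CPM in D2-mdx, and that of the 7 white blood cell markers was 24.4 and 23.8 CPM, and 90.6 and 111 CPM. The 8 fibroblast or tenocyte markers summed to 30.3 and 31.2 CPM in mdx and to 112 against 83.0 CPM in D2-mdx, a log2 ratio of 0.43. In mdx 4 of the 8 were at 0 in positive cells, Pdgfra among them. Endothelial markers had log2 ratios of -0.35 and 0.09, vascular smooth muscle markers -0.41 and -0.14, glial markers 0.15 and 0.28 and Schwann cell markers -0.13 and 0.07. The 6 mature myofibre markers were lower in positive cells, at 61.4 against 128 CPM and 185 against 252 CPM. Of these markers, Acta1, Tnnc2, Tnnt3, Ckm and Mylpf also belong to the early sarcomere list, so both results rest largely on the same genes. The other list of mature myofibre genes, with 4 compared, went the other way, with median log2 ratios of 0.26 and 0.19. The part of the markers of other cell types in the differences was not tested.

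Over all myogenic cells, cells with Cdkn2a were found among cells with cycle genes at about the rate of other cells or above it. In mdx, 31 cells had UMIs of both Cdkn2a and Mki67, where independent detection would give 25.3, and Mki67 was found in 4.2% of positive (2.87 to 5.91) and 3.28% of negative cells (2.76 to 3.88). In D2-mdx 49 cells had both, against 39.5, and Mki67 was found in 5.66% (4.22 to 7.42) and 4.27% (3.61 to 5.02). The intervals of positive and negative cells overlapped in both libraries.

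Top2a encodes the topoisomerase of dividing cells. In mdx 24 cells had both Cdkn2a and Top2a, against 14.4 (ratio 1.67, 1.07 to 2.48), and in D2-mdx 53, against 33.9 (1.56, 1.17 to 2.05). It was found in 3.25% of positive (2.09 to 4.80) and 1.71% of negative cells (1.34 to 2.16) in mdx, with intervals that overlapped, and in 6.13% (4.62 to 7.94) and 3.34% (2.76 to 4.01) in D2-mdx. The size of these differences depended on the draw. In mdx, the difference between positive and negative cells was 0.919 percentage points for Mki67 and 1.54 for Top2a, and in another draw of 3000 UMIs 2.25 and 0.873, so that neither gene was consistently the larger, and in D2-mdx it was 1.39 and 2.79, and then 3.04 and 3.28. Cells with all 3 genes numbered 7 in mdx, against 4.29, and 20 in D2-mdx, against 13.6. Of the 20 positive cells of B10, 1 had Mki67 and none Top2a, and of the 13 of DBA none had either.

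The part of the cell classes in this joint detection differed between the libraries. If detection were independent within each class, the expected numbers would be 26.0 for Mki67 and 15.7 for Top2a in mdx, and 48.4 and 41.2 in D2-mdx, so that the Mki67 count of 49 in D2-mdx was nearly the expected one, while in mdx the expected numbers were close to those without classes. In MuSC-like cells, Mki67 was found in 3.42% of positive (1.88 to 5.68) and 2.11% of negative cells (1.61 to 2.72) in mdx, and in 1.43% and 1.67% in D2-mdx. Top2a in the same class was found in 1.22% (0.398 to 2.83) and 0.502% (0.275 to 0.840) in mdx, and in 1.23% and 1.03% in D2-mdx. MuSC-like cells of the B10 control had Mki67 in 1.77% and Top2a in 0.222%. Those of the DBA control had Mki67 in 0.612% and Top2a in 0 of 2450 cells. Among cycling progenitor-like cells, Top2a was found in 20.7% of the 58 positive (11.2 to 33.4) and 14.8% of negative cells in mdx, and in 33.9% of the 118 positive (25.4 to 43.2) and 22.5% (18.1 to 27.4) of negative cells in D2-mdx. In DMD-enriched-like cells, Mki67 was found in 3.1% of positive and 2.3% of negative cells in mdx, and in 4.35% and 6.06% in D2-mdx. Top2a in that class was at 3.1% and 1.2%, and at 2.9% and 2.2%. In differentiating myocyte-like cells, Mki67 was found in 0 of 28 positive cells in mdx and 0 of 34 in D2-mdx. The negative cells of that class were at 2.02% and 3.55%. For scale, Mki67 and Top2a themselves were found together in 28 cells of mdx, against 3.22, and 66 of D2-mdx, against 7.48. Within classes the expected numbers for that pair would be 10.6 and 28.4. With cycling progenitor-like cells left out, the difference in Mki67 detection was 0.922 percentage points in mdx, against 0.919 over all myogenic cells, and -0.166 in D2-mdx, against 1.39.

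The other members differed in their joint detection with the cycle genes. Lmnb1 and Top2a were found together in 30 mdx cells, against 7.58, and 71 D2-mdx cells, against 16.3. With detection independent within each class, 14.6 and 41.3 would be expected. Cdkn1a and Top2a were found together in 25 cells of mdx, against 26.4, and 73 of D2-mdx, against 50.3. Within classes the expected numbers for this pair would be 28.9 and 57.1. For Cdkn2b with Mki67 the numbers were 2 against 5.61 in mdx and 9 against 6.57 in D2-mdx, with ratio intervals of 0.0432 to 1.29 and 0.627 to 2.60. Glb1 was found with Mki67 in 9 cells, against 5.85, and in 1 cell, against 3.79.

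Among the members themselves, Cdkn2a and Cdkn2b were found together more often than independence would give, in 41 cells against 25.1 in mdx (ratio 1.63, 1.17 to 2.22) and 43 against 29.7 in D2-mdx (1.45, 1.05 to 1.95). Within classes the ratios were 1.51 and 1.37. Cdkn2a and Cdkn1a were found together in 252 cells against 207 (1.21, 1.07 to 1.37) and 304 against 265 (1.15, 1.02 to 1.28). For this pair the ratios within classes were 1.21 and 1.11. In MuSC-like cells alone they were 1.25 (1.05 to 1.48) in mdx and 1.07 (0.90 to 1.26) in D2-mdx. Cdkn2b and Cdkn1a, in contrast, were at 46 cells against 46.1 and 45 against 44.2. Cdkn2a with Lmnb1 gave 56 against 59.5 and 98 against 85.7, and with Glb1 27 against 26.2 and 21 against 17.1. The intervals of those last ratios included 1.

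**Figure D5:**
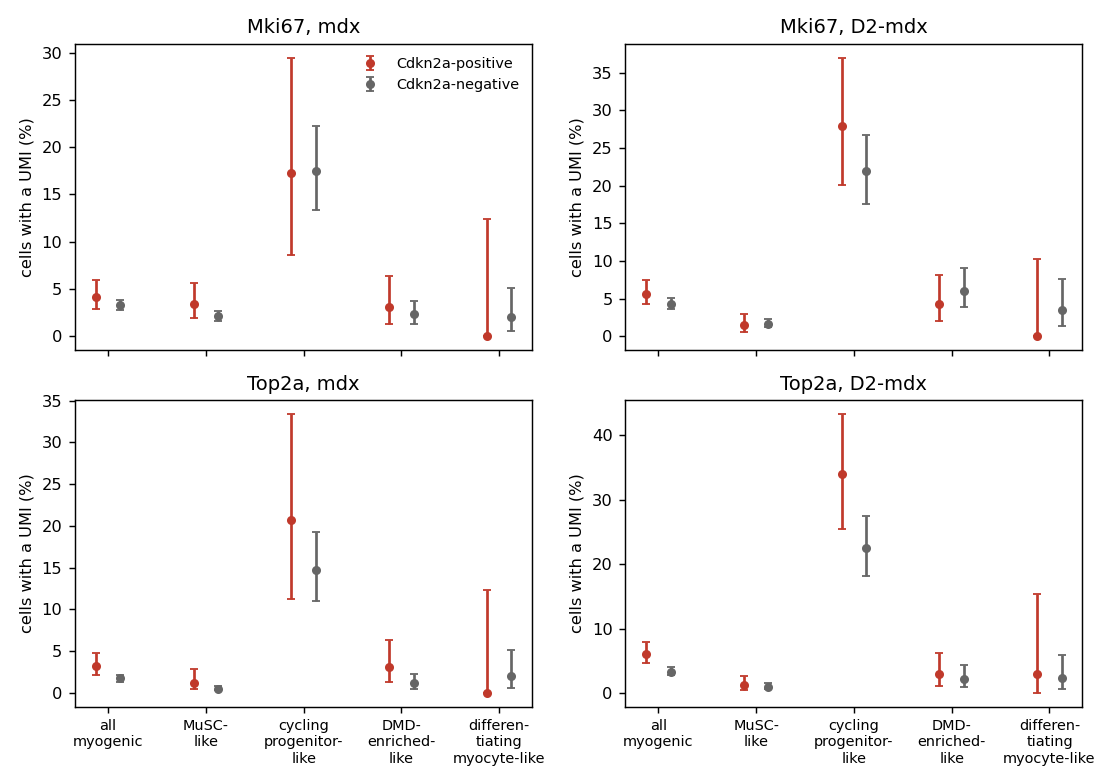
Share of Cdkn2a-positive and Cdkn2a-negative cells with a UMI of Mki67 or Top2a, in percent after thinning, by cell class in mdx and D2-mdx. In cycling progenitor-like cells, Top2a is at 20.7% of positive and 14.8% of negative cells in mdx. In D2-mdx these shares are 33.9% and 22.5%. Mki67 in the same class is at 17.2% and 17.4% in mdx, and at 28.0% and 21.9% in D2-mdx.

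Cells with more Cdkn2a UMIs were few. Cdkn2b stood at 10.9, 18.2, 25.2 and 23.0 CPM in mdx cells with 0, 1, 2 and 3 or more Cdkn2a UMIs, and at 10.6, 16.3, 27.0 and 16.9 CPM in D2-mdx cells. The last group had 29 and 59 cells with 2 and 3 UMIs of Cdkn2b, and its intervals spanned all the others. Pax7 stood at 495, 457, 371 and 414 CPM in mdx and at 526, 487, 453 and 401 CPM in D2-mdx, so that the negative cells had the highest level in both libraries. These groups were not matched for class. Against class-matched negatives, the log2 ratio of Pax7 in all positive cells was -0.13 in mdx and -0.02 in D2-mdx. Top2a was detected in 1.71%, 3.32% and 3.77% of mdx cells with 0, 1 and 2 UMIs and in no cell of the 29 with more, which allows a share of up to 11.9%, and in 3.34%, 5.69%, 7.51% and 6.78% of D2-mdx cells.

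Over 17 class-by-library groups of at least 50 cells, the genes most like Cdkn2a among 8053, by Pearson correlation of log2(CPM + 1), were Ahnak2 (0.972), Dpysl3 (0.969), Ubtd1 (0.948), Popdc3 (0.945) and AI467606 (0.944). All 5 were higher in the dystrophic libraries, for example Dpysl3 at 2.76 CPM in B10, 110 CPM in mdx, 3.89 CPM in DBA and 123 CPM in D2-mdx. The genes most like Cdkn2b were Mgat4b (0.929), Sema3a (0.909), Col1a1 (0.908), Nrp1 (0.908) and Dpysl3 (0.906), and those most like Cdkn1a were Ctsd (0.946), Ppib (0.946), Naca (0.934), Fundc2 (0.934) and Bsg (0.930). Among the members, Cdkn2a had a correlation of 0.863 with Cdkn2b, 0.874 with Cdkn1a, 0.746 with Glb1 and 0.306 with Lmnb1. The 17 groups share 4 libraries, with their depth and strain, and the values describe these groups.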

How the data were processed

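The authors deposited, per library, a 10X matrix of raw counts of UMIs per gene and cell barcode, made with Cell Ranger 3.0.1 and mm10 per the submitters' processing notes. No count column was left unused. Here, barcodes were kept if they had 1000 to 5000 genes and no more than 8% of UMIs from mitochondrial genes, and predicted doublets (2.70% to 5.34%) were removed with the Scrublet function of scanpy 1.11.5. Cells were clustered with Seurat 5.3.0 (2000 variable genes, 30 dimensions, resolution 0.1, then 0.3 for myogenic cells). The study's 0.2 placed the DMD-enriched and differentiating markers in the same cluster, so 0.3 was chosen after seeing the data. Clusters were named by fixed markers.

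Levels are summed UMIs scaled to CPM, with exact Poisson (level), Clopper-Pearson (share) and binomial (ratio) 95% intervals. Positive means at least 1 Cdkn2a UMI after thinning to 3000, and the 39 B10 cells under that depth were left out. A gene was compared between positive and negative cells when it had at least 20 UMIs in the positive cells or would have had them at the rate of the negative cells. Class-matched negatives were weighted to the class mix of the positives. TMM sizes (edgeR 4.0.16) and DESeq2 1.42.0 size factors were alternatives only, without a test. The scripts were tested on simulated data. Python 3.11.15, pandas 2.3.3 and R 4.3.3 were used.

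Beside the members, Mki67, Top2a and Dmd, the text names the genes past 2-fold in the same direction in mdx and D2-mdx (up to 10 each way, and 5 against class-matched negatives), the 5 genes most like each inhibitor over groups of at least 50 cells, and from each list the 2 to 4 genes of largest ratio. Others were chosen after their values were seen. The members and lists were chosen with earlier results of these data known, and the UMI spread, the division of cells and the oligo match were added after seeing the data.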

Additional observations from a re-analysis of the deposited data

How the results depend on the processing

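No paired analysis was possible because each strain had 1 library, and no replicate could be left out. Of the recomputed main results, 96 kept their direction and stayed within the counting interval or 1.5 times the count, 67 moved beyond it and 1 reversed. The cause was not tested for any of them, except where fewer genes or cells entered by construction.

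For the log2 ratios of mdx to B10, Cdkn1a became 1.96 over all kept cells, 2.05 at no more than 5% mitochondrial UMIs and 2.29 with cells gated by markers, a minimum of 500 genes and no maximum. Lmnb1 became 0.82 as a mean per cell, 0.094 in MuSC-like cells, 0.94 over all cells and 1.48 with the gate, and Glb1 0.81 in MuSC-like cells. For D2-mdx to DBA, Cdkn2a became 5.20 in MuSC-like cells and Cdkn2b 2.52 over all cells. Cdkn1a became 2.00 as a mean per cell, 1.88 in MuSC-like cells, 1.89 over all cells and 2.37 with the gate. Lmnb1 became 0.84, 0.053, 1.02 and 1.48 in that order, and Glb1 0.39 in MuSC-like cells. The ratios of Cdkn2a in mdx and Cdkn2b in mdx stayed within their intervals under every alternative run.

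The counts of genes past 2-fold between positive and negative cells depended on most settings. For genes higher in mdx (12), they were 54 at 5000 UMIs, 146 in whole cells, 39 in another draw, 19 in MuSC-like cells, 27 with doublets kept, 2 at a minimum of 50 UMIs, 68 at 10 UMIs and 195 at 1.5-fold. For genes lower in mdx (31), they were 104 in whole cells, 11 at 50 UMIs, 89 at 10 UMIs and 189 at 1.5-fold. For genes higher in D2-mdx (40), they were 15 at 2000 UMIs, 64 at 5000, 183 in whole cells, 23 against class-matched negatives, 18 in MuSC-like cells, 8 at 50 UMIs, 116 at 10 UMIs and 271 at 1.5-fold. For genes lower in D2-mdx (38), they were 123 in whole cells, 21 class-matched, 14 in MuSC-like cells, 7 at 50 UMIs, 102 at 10 UMIs and 204 at 1.5-fold. Genes higher in both (1) numbered 7 at 5000 UMIs, 13 in whole cells, 5 in another draw, 0 in MuSC-like cells, 0 with doublets kept, 7 at 10 UMIs and 40 at 1.5-fold. Genes lower in both (5) numbered 1 at 2000 UMIs, 23 in whole cells, 1 in another draw, 3 class-matched, 0 in MuSC-like cells, 1 with doublets kept, 3 at 50 UMIs, 10 at 10 UMIs and 23 at 1.5-fold. The gene lower in both in another draw, at 2000 UMIs and with doublets kept was none of the 5.

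The difference in Mki67 detection between Cdkn2a-positive and negative cells was 0.919 percentage points in mdx and 5.00 unthinned. In D2-mdx it was 1.39, 9.28 unthinned and -0.166 with cycling cells left out, which reversed it. For Top2a it was 1.54 in mdx and 4.62 unthinned, and 2.79 in D2-mdx, 0.972 at 2000 UMIs, 9.10 unthinned and 0.536 without cycling cells. Over the settings other than unthinned, the difference ranged from 0.904 to 2.53 for Mki67 and from 0.593 to 2.04 for Top2a in mdx, with Mki67 the larger in another draw (2.25 against 0.873). Unthinned values favour deep cells for both genes by construction.

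With 1 library of 2 pooled mice per strain, the spread between animals is unknown, and intervals cover counting error only. At 3000 UMIs most cells with Cdkn2a show 1 UMI, so joint detection and the positive and negative sets have limited resolution.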

Other observations

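At a ratio of 1.5-fold, 40 of the 8296 genes compared in both libraries were higher and 23 lower in Cdkn2a-positive cells of both mdx and D2-mdx. The member Cdkn2b was among the 40. The genes below were chosen after their values were seen, from those past 1.5-fold in both libraries in the same random draw. That both libraries go the same way therefore follows from the choice, and whether these genes recur in another draw was not tested. Higher in both, and similar against class-matched negatives, were Anxa3, which encodes annexin A3 (log2 ratios 0.84 and 0.92, class-matched 0.72 and 0.93), Casp9, the initiator caspase of the mitochondrial pathway of apoptosis (0.77 and 0.94, class-matched 0.74 and 1.01), and the autophagy protease gene Atg4a (0.71 and 0.90, class-matched 0.83 and 0.85). Sema3a, a secreted guidance factor that is also among the genes most like Cdkn2b over the cell groups, was at 0.61 and 0.80 (class-matched 0.57 and 0.74). Ambra1, a regulator of autophagy and of cyclin D turnover, was lower at -0.73 and -1.16 (class-matched -0.79 and -1.16).

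Mtap, the neighbouring protein-coding gene of Cdkn2a on the side away from Cdkn2b, encodes methylthioadenosine phosphorylase. It stood at 26.8 CPM in B10, 49.3 CPM in mdx, 37.1 CPM in DBA and 57.8 CPM in D2-mdx, log2 ratios of 0.88 (0.77 to 0.99) and 0.64 (0.53 to 0.75), where those of Cdkn2a and Cdkn2b were 3.03 to 5.99.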
